A study of Mus musculus with 6 samples.

Results

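Alveolar type 1 cells were followed through 10 marker genes, Ager, Pdpn, Hopx, Rtkn2, Clic5, Cav1, Cav2, Emp2, Igfbp2 and Akap5, in bulk RNA sequencing of EpCAM-positive cells sorted from mouse lungs at E16.5 (embryonic day). The genes were taken by name and matched by Entrez identifier to the deposited table of counts. All 10 were found among its 27179 genes, and all 10 were among the 14842 genes with enough counts to be tested. Control samples (n = 3, replicates 1, 3 and 7) carried Shh-Cre with 1 floxed and 1 intact allele of Grhl2, the gene of an epithelial transcription factor. Samples called Grhl2_cKO (n = 3, replicates 1, 5 and 10) carried Shh-Cre with 1 floxed and 1 null allele. Both genotypes therefore carried the Cre recombinase, which Sonic hedgehog sequences drive in the embryonic lung epithelium, and control cells in which it acted keep 1 Grhl2 allele. Of the 3 samples of a genotype 2 were male and 1 was female. It is not stated whether a sample came from 1 embryo, so p-values here measure the spread between these samples.

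Type 1 cells are the thin, flat cells across which gas passes in the alveolus, and type 2 cells are their cuboidal neighbours that make surfactant. Both arise in the distal tubules of the embryonic lung, where cells that leave the growing tips begin to turn on genes of one or the other fate before birth. At E16.5 this is under way, so the values describe early type 1 gene expression and not mature type 1 cells. Several of the 10 genes are also used by other cells: the caveolins by endothelium, Pdpn by mesothelium and lymphatic endothelium, and Hopx by heart muscle.

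The libraries held 13472216 to 17228762 counts. Levels are in CPM, a library's counts scaled to 1e6 in total after TMM adjustment of its size, and 3 counts, up to which a gene seen at 0 may reach, come to 0.178 to 0.224 CPM. Values of single libraries are listed in the order of control replicates 1, 3, 7 and Grhl2_cKO replicates 1, 5, 10. Grhl2 itself measured 149, 148 and 146 CPM in the controls, against 105, 109 and 115 CPM in the knockouts (log2 fold change -0.43, SE 0.06, with an edgeR adjusted p of 0.0026). Epcam, the gene of the sorted protein, stood at 67.6% of control (edgeR adjusted p = 0.00412), and its part in which cells were collected was not tested. In sorted bulk cells fewer cells of a type and less RNA per cell cannot be told apart.

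Libraries of 1 genotype differed among themselves in the type 1 genes. Control replicate 1 was the highest control for 8 of the 10 markers, all but Igfbp2 and Akap5, whereas it was the highest control for 37.9% of all genes tested. Its level over the mean of control replicates 3 and 7 had a median of 1.38 among the markers and 0.999 among all genes tested. The excess was 1.82-fold for Clic5, 1.49-fold for Hopx, 1.43-fold for Ager, 1.42-fold for Cav1, 1.41-fold for Cav2 and 1.35-fold for Emp2. A ratio of 1.2 or more was found for 6 of the 10 markers and 13.6% of all genes tested. Among knockout libraries, Grhl2_cKO replicate 1 was the highest for 8 of 10 markers, all but Pdpn and Igfbp2, against 32.0% of all genes tested. Some marker lists of other cells were also highest in these libraries, and others were not. The 8 endothelial markers summed to 224, 212 and 151 CPM in controls and 195, 209 and 208 CPM in Grhl2_cKO. The 3 lymphatic markers summed to 27.0, 20.8 and 19.3 CPM in controls and 21.3, 25.5 and 27.4 CPM in Grhl2_cKO. The 5 mesothelial markers summed to 83.7 CPM in control replicate 1 and 43.2 and 48.9 CPM in the other controls. Their sum was 64.6 CPM in Grhl2_cKO replicate 1, whereas the other knockout libraries held 23.1 and 21.7 CPM. The 9 mesenchymal markers summed to 1473, 1220 and 914 CPM in controls and 1779, 884 and 1048 CPM in Grhl2_cKO. Most of this sum was collagen: Col1a1, Col1a2 and Col3a1 held 486, 413 and 640 CPM in Grhl2_cKO replicate 1. These collagens, Dcn, Acta2 and Tagln were highest in replicate 1 of both genotypes, whereas Pdgfra, Pdgfrb and Tcf21 were not. Pdgfra stood at 27.1, 27.2 and 26.9 CPM in Grhl2_cKO. The part of these other cells in the type 1 values was not tested.

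**Figure D1:**
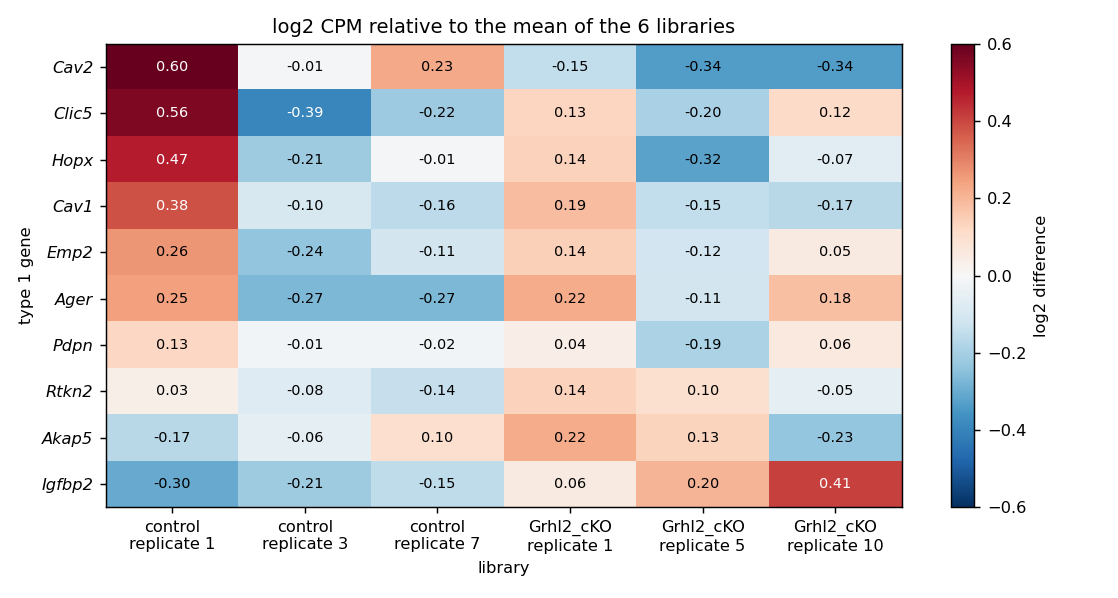
Each cell gives the log2 CPM of 1 type 1 gene (rows) in 1 library (columns) minus its mean over the 6 libraries, with red above and blue below that mean. Control replicate 1 stands at 0.60 for Cav2, 0.56 for Clic5 and 0.47 for Hopx, while Igfbp2 runs from -0.30 in the same library to 0.41 in Grhl2_cKO replicate 10.

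Levels of different genes were compared per kilobase of the gene length given in the deposited table. Ager and Igfbp2 were the most abundant markers in controls, at 346 ± 75.5 and 298 ± 15.6 CPM per kilobase (SD, n = 3), and their control values overlapped. Emp2 at 124 ± 22.9 and Hopx at 98.4 ± 24.8 CPM per kilobase came next and overlapped each other, each below every control value of Igfbp2. Cav1, Pdpn, Akap5, Clic5 and Cav2 followed at 53.9, 53.0, 47.5, 32.6 and 26.3 CPM per kilobase, each overlapping the next in this order. Rtkn2 was the lowest, at 4.90 ± 0.30 CPM per kilobase, below every control value of Cav2. For scale, the type 2 gene Sftpc, which encodes surfactant protein C, stood at 16634 ± 1017 CPM per kilobase. In Grhl2_cKO the order was the same except that Igfbp2 (409 ± 51.2) lay above Ager (393 ± 47.8), and that Cav1, Pdpn and Akap5, which lay between 50.4 and 50.9 CPM per kilobase, changed places.

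Of the 10 markers 1 rose in Grhl2_cKO, Igfbp2, and none fell (edgeR's quasi-likelihood test, with p adjusted by Benjamini-Hochberg over all genes tested and a threshold of 0.05). Among all genes tested 3.62% were called, 1.23% higher and 2.39% lower. The median log2 fold change of the markers was 0.01, with 5 above 0 and 5 below 0, beside -0.004 for all genes tested. The groups did not overlap for 2 of the 10, Igfbp2 and Cav2, and for 18.1% of all genes tested (8.17% higher, 9.89% lower). The log2 fold changes of the other 8 lay between -0.18 and 0.18.

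**Figure D2:**
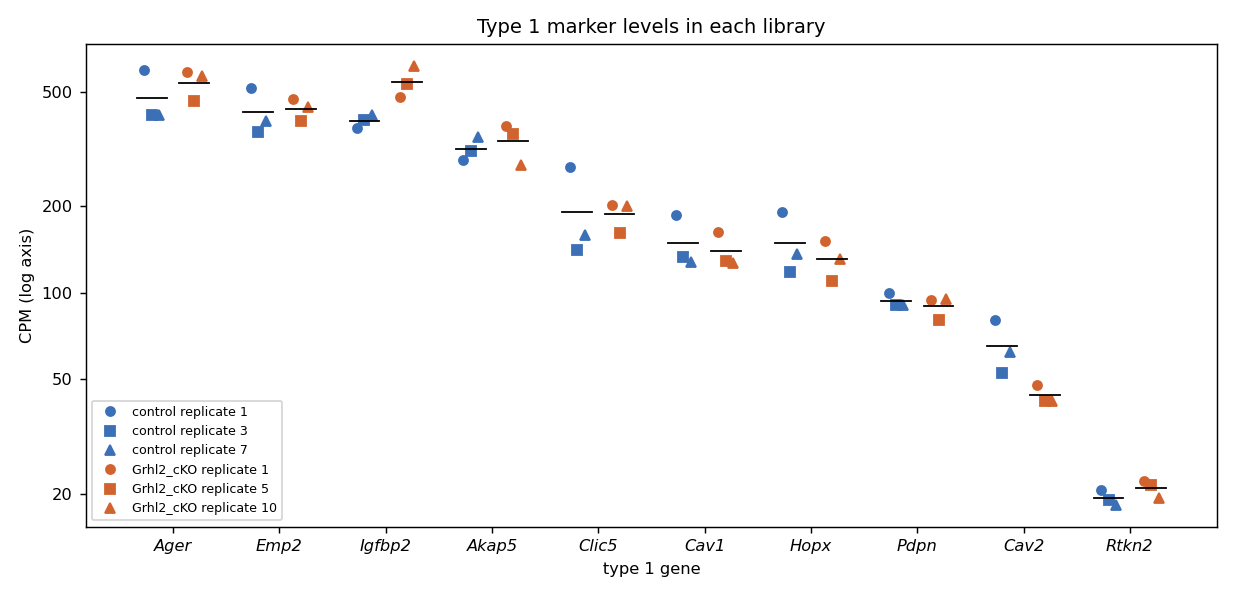
Each point is 1 library's CPM (log axis) for 1 of the 10 type 1 genes, blue for control and orange for Grhl2_cKO, with a black line at the group mean. Igfbp2 runs from 375 to 416 CPM in controls and from 481 to 616 CPM in Grhl2_cKO, and Cav2 lies lower in each Grhl2_cKO library than in any control.

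Igfbp2 (Entrez 16008, chromosome 1, 72824480 to 72852474, mm10) encodes a secreted protein that binds insulin-like growth factors. It stood at 375, 399 and 416 CPM in controls and 481, 533 and 616 CPM in Grhl2_cKO. Each knockout library lay above each control, and control replicate 1, the highest control for most markers, was the lowest for this one. The rise was 1.37-fold (95% interval 1.19 to 1.57; log2 fold change 0.45, SE 0.09, with an edgeR adjusted p of 0.0217). The direction held in each of 16 alternative analyses (log2 fold change 0.36 to 0.53), and the call was lost without control replicate 3 (edgeR adjusted p = 0.0848, with 2.01% of all genes called) or Grhl2_cKO replicate 5 (0.0651, with 1.71%).

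Genes around Igfbp2 in its pathway were measured beside it. None of the 12 tested genes of the other IGF binding proteins, ligands and receptors was called. The one with the smallest p was Igf2r, a receptor that takes up IGF2, at -0.20 ± 0.08 on the log2 scale (edgeR adjusted p = 0.287). Igfbp5 stood at 871.5 ± 78.5 and 944 ± 60.3 CPM (SD, n = 3 each) in control and Grhl2_cKO, and Igfbp1 was at 0.118 CPM or less in each library.

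The caveolins are neighbours on chromosome 6 and build caveolae, flask-shaped pits of the cell membrane, with Cav1 as the structural protein and Cav2 as its partner. Cav2 (Entrez 12390, 17281185 to 17289130) stood at 80.5, 52.5 and 62.0 CPM in controls and 47.9, 41.9 and 41.9 CPM in Grhl2_cKO. Each knockout library lay below each control. Its level was 67.6% of control (95% interval 54.9% to 83.2%; log2 fold change -0.56 ± 0.13 SE), and it missed the threshold narrowly (edgeR adjusted p = 0.0501). It was called with DESeq2 (adjusted p = 0.00108), which called 4.51% of all genes. It was also called by edgeR with no filter on low counts (adjusted p = 0.0482, 2.63% of all genes called) and without control replicate 3 (0.0192). Without control replicate 1 the log2 fold change was -0.37, again just short of the threshold (edgeR adjusted p = 0.0594), and over all 16 alternatives the adjusted p ran from 0.00108 to 0.172.

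Cav1 (Entrez 12389, 17306335 to 17341328) starts 17219 bases beyond the end of Cav2. It stood at 186, 133 and 128 CPM in controls and 162, 129 and 127 CPM in Grhl2_cKO. The groups overlapped, and replicate 1 was the highest library in both. The log2 fold change was -0.10 ± 0.14 SE (95% interval -0.41 to 0.22, edgeR adjusted p = 0.91), and it was 0.10 without control replicate 1.

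The ratio of Cav2 to Cav1 counts within a library needs no scaling between libraries, and was looked at after the values of both genes were seen. It was 0.433, 0.394 and 0.484 in controls, and 0.295, 0.325 and 0.330 in the knockouts. The groups did not overlap. The knockout mean was 0.725 of the control mean (two-sided exact permutation test, p = 0.1, the smallest that 3 against 3 samples allow), and 0.691 to 0.766 without any 1 library. Of the 7 tested genes among 8 other caveola genes none was called. Cavin2, a caveola coat gene, had the smallest p, at 0.23 ± 0.13 on the log2 scale (edgeR adjusted p = 0.561), and without control replicate 1 it was called higher (log2 fold change 0.42, adjusted p = 0.0236). The 8 endothelial markers, cells that also use caveolins, summed to 151 to 224 CPM in controls and 195 to 209 CPM in Grhl2_cKO, and none of the 8 was called, the smallest p being that of Cldn5 (log2 fold change 0.40 ± 0.14, edgeR adjusted p = 0.192).

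Sequence upstream of these 3 genes is given because Igfbp2 and Cav2 were the markers whose groups did not overlap and Cav1 is the neighbour whose groups did. Each window runs from 250 bases before to 50 bases after an annotated start, on the plus strand, from the RefSeq table on GRCm38.p6, whose chromosome coordinates are those of mm10. The windows are chr1:72824230-72824529 for Igfbp2, chr6:17280935-17281234 for Cav2 and chr6:17306085-17306384 for Cav1. They hold no match to the motifs searched, so none of their letters is in capitals.
Igfbp2: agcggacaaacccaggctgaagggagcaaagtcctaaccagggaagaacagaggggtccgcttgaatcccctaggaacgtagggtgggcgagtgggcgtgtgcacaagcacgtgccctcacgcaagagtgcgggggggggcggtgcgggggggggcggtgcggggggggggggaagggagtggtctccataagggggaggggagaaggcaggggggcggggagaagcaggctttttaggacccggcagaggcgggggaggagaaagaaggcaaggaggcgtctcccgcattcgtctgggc
Cav2: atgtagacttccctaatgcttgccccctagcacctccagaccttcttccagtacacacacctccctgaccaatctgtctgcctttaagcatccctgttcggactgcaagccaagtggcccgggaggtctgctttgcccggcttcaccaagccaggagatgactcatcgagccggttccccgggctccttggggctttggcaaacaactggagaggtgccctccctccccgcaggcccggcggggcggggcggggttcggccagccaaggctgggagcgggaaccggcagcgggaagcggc
Cav1: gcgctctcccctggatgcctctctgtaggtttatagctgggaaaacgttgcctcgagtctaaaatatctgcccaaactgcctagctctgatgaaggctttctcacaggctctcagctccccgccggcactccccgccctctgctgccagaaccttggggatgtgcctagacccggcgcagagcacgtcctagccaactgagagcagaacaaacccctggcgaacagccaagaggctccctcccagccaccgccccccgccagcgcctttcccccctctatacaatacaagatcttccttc

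The RefSeq table held 12 windows for 9 of the markers, all but Rtkn2. On both strands, the grainyhead motif AACCNGTT was in 0 of these 12 windows and in 2.09% of the table's 32851 windows, and its strict form AACCGGTT in 0 and 0.146%, the strict form being contained in the first. The motif GGAATG of TEAD factors was in 0 of 12 and in 14.7% of all windows. The motif CACTNNAG of NKX2-1, a factor that lung epithelial genes depend on, was in 4 of 12 windows, 1 each of Pdpn, Hopx, Igfbp2 and Akap5, and in 16.0% of all windows. A match is a description of letters, and nothing about a factor was measured. The 4 matches are shown in the direction of each gene with the motif or its reverse complement in capitals, at chr4:143299672-143299699 (minus strand), chr5:77095218-77095243 (minus strand), chr1:72825403-72825430 (plus strand, at a second annotated start of Igfbp2) and chr12:76324654-76324681 (plus strand).
Pdpn: cccttttctcCTGTAGTGgaacaaagtc
Hopx: ccggaggcagCACTTGAGgcgcttcc
Igfbp2, second start: gcacaggtgaCACTGCAGacctcgggtg
Akap5: tcctgctttgCTTTAGTGgtccctccac

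Among the surface proteins, Ager (Entrez 11596, chromosome 17, 34597460 to 34600937) encodes RAGE, a receptor of the basal membrane of type 1 cells. It stood at 594, 415 and 415 CPM in controls and 585, 464 and 567 CPM in Grhl2_cKO. Control replicate 1 lay above each knockout library and the other controls below each, so the groups overlapped through 1 library. The log2 fold change was 0.18 ± 0.14 SE (95% interval -0.13 to 0.49, edgeR adjusted p = 0.731), and 0.39 without control replicate 1, where it was still not called (edgeR adjusted p = 0.0622). Of 7 genes of RAGE ligands 3 were tested and none was called. S100a11, a calcium-binding ligand gene, moved by -0.37 ± 0.09 on the log2 scale (edgeR adjusted p = 0.062; called with DESeq2, 0.011, and with edgeR without Grhl2_cKO replicate 1, 0.0462, when 3.14% of all genes were called).

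Pdpn (Entrez 14726, chromosome 4, 143267409 to 143299564) encodes podoplanin, the apical glycoprotein also called T1-alpha. It was steady, at 100.1, 90.8 and 90.6 CPM in controls and 94.1, 80.3 and 95.4 CPM in Grhl2_cKO. The groups overlapped, and the spread was 5.77% of the mean in controls and 9.29% in Grhl2_cKO. The 95% interval of its fold was 0.851 to 1.08 (edgeR adjusted p = 0.888). None of 3 tested genes of podoplanin partners was called, the smallest p being that of the tetraspanin gene Cd9 (log2 fold change -0.38 ± 0.11, edgeR adjusted p = 0.105; called with DESeq2, 0.012).

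Emp2 (Entrez 13731, chromosome 16, 10281749 to 10313968) encodes a tetraspan protein of the type 1 cell membrane. It stood at 514, 364 and 397 CPM in controls and 473, 395 and 445 CPM in Grhl2_cKO. All knockout values lay inside the range of the controls. The 95% interval of its fold was 0.856 to 1.24 (edgeR adjusted p = 0.971). Of its family, Emp3 rose from 5.32 ± 0.65 to 9.22 ± 1.66 CPM (SD, n = 3; log2 fold change 0.80, SE 0.17, with an edgeR adjusted p of 0.029) and Emp1 was not called. The call of Emp3 was lost without control replicate 3 or 7 or Grhl2_cKO replicate 1 or 10 (edgeR adjusted p = 0.129, 0.0832, 0.0823 and 0.0771).

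Hopx (Entrez 74318, chromosome 5, 77086986 to 77115123) encodes a homeodomain protein that does not bind DNA and that marks type 1 cells. It stood at 190.4, 118 and 137 CPM in controls and 151, 110 and 131 CPM in Grhl2_cKO. The groups overlapped, with control replicate 1 above each other library. The log2 fold change was -0.18 ± 0.16 SE (95% interval -0.54 to 0.18, edgeR adjusted p = 0.784), and 0.04 without control replicate 1. Of its 1516 exonic bases in GENCODE M21, 412 overlap the antisense gene Hopxos, and since it is not known whether counting used strand, reads of the pair cannot be told apart. Heart muscle markers, whose tissue also uses Hopx, summed to 388 CPM in Grhl2_cKO replicate 1 and 167 to 226 CPM in the other libraries. Much of each sum was Myh7, at 201 CPM in Grhl2_cKO replicate 1 and 139 to 196 CPM in the others. Actc1 stood at 51.3 CPM against 3.74 to 11.7 CPM, and Myh6 at 76.4 CPM against 9.19 to 14.4 CPM. Hopx was highest in Grhl2_cKO replicate 1 among the knockouts (151 CPM), and the part of heart muscle in its values was not tested.

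The cytoskeletal and signalling members were Clic5, Rtkn2 and Akap5. Clic5 (Entrez 224796, chromosome 17, 44134762 to 44280169) encodes a chloride intracellular channel protein that associates with actin and ERM proteins. It stood at 273, 141 and 159 CPM in controls and 203, 162 and 201 CPM in Grhl2_cKO. As for Ager, control replicate 1 lay above and the other controls below each knockout library, and the spread among controls was 37.5% of their mean, the widest of the 10 markers. The log2 fold change was -0.02 ± 0.21 SE (95% interval -0.48 to 0.44, edgeR adjusted p = 0.993), and 0.34 without control replicate 1 (edgeR adjusted p = 0.12). Of 8 other CLIC and ERM genes 1 fell: Ezr, which encodes the membrane to actin linker ezrin, to 78.2% of control (edgeR adjusted p = 0.0472), called in 7 of 16 alternatives (adjusted p 0.00178 to 0.186) and not without control replicate 1 (0.116).

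Rtkn2 (Entrez 170799, chromosome 10, 67979566 to 68058429) encodes rhotekin 2. It stood at 20.6, 19.0 and 18.3 CPM in controls and 22.1, 21.4 and 19.4 CPM in Grhl2_cKO, with overlap through 1 control library and Grhl2_cKO replicate 10. The 95% interval of its fold was 0.942 to 1.26 (edgeR adjusted p = 0.732). Of its exonic bases 216 of 3980 overlap the antisense gene Gm16212, with the same limit as for Hopx.

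Akap5 (Entrez 238276, chromosome 12, 76324617 to 76334517) encodes a scaffold that anchors protein kinase A and calcineurin. It stood at 289.9, 312 and 349 CPM in controls and 379, 357 and 278 CPM in Grhl2_cKO. The knockout libraries spanned the controls, with the highest and the lowest library both in Grhl2_cKO. The 95% interval of its fold was 0.897 to 1.27 (edgeR adjusted p = 0.877). None of 8 genes of AKAP5 and rhotekin partners was called, the smallest p being that of Prkar2a, a regulatory subunit of protein kinase A (log2 fold change 0.13 ± 0.07, edgeR adjusted p = 0.53).

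**Figure D3:**
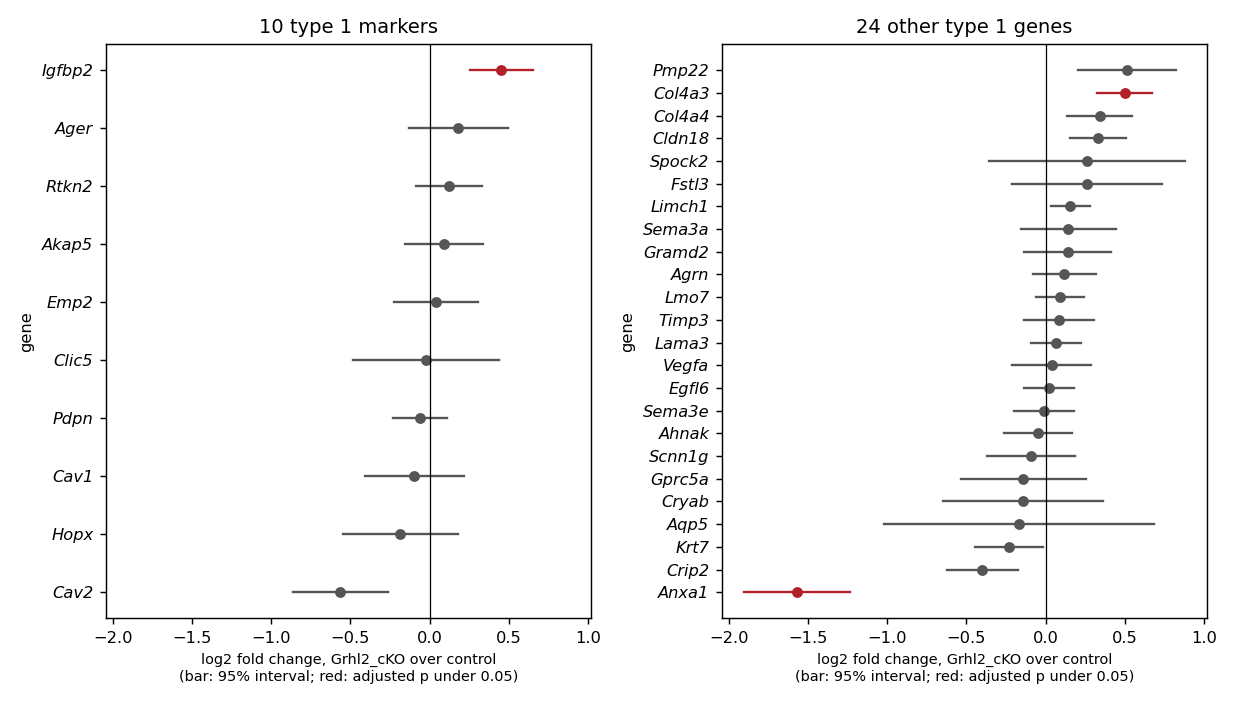
Points give the log2 fold change of Grhl2_cKO over control with its 95% interval for the 10 markers (left) and 24 other type 1 genes (right), in red where the edgeR adjusted p is under 0.05. Igfbp2 (0.45) is red among the markers and Col4a3 (0.50) and Anxa1 (-1.57) among the others, and of the 24 other genes all but Pmp22, Col4a3, Crip2 and Anxa1 lie within 0.35 of 0.

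How far the markers varied together over the 6 libraries is described by the Pearson correlation of each gene's log2 CPM with the mean of the other 9 markers. These values share libraries and depth, and have an n of 6. The correlation was 0.97 for Emp2, 0.92 for Clic5, 0.86 for Ager, 0.85 for Cav1, 0.84 for Hopx, 0.56 for Pdpn, 0.44 for Rtkn2 and 0.29 for Cav2. It was -0.29 for Igfbp2 and -0.25 for Akap5. Igfbp2, the marker that rose, and Akap5 were those with a correlation below 0. The genes most like the mean of all 10 markers were Slc29a1, Csrp2, Adamtsl1, Mpped2 and Parp12 (correlation 0.98 each, n = 6), and 22 of 10318 genes with a mean of 10 CPM or more reached 0.95. None of these 5 was called between genotypes. They were picked for following the markers' mean over the same libraries, in which the genotypes overlapped, so this is no separate result.

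Other genes of type 1 cells, 24 in a list that holds none of the 10, gave a similar count of calls. All 24 were tested, 1 rose and 1 fell, 8.33% beside 3.62% of all genes tested. Of the 24, 15 lay above 0, with a median log2 fold change of 0.08. The groups did not overlap for 7 of the 24, beside 18.1% of all genes tested. Of these Crip2 and Anxa1 lay lower in Grhl2_cKO and the rest higher. Anxa1, which encodes the phospholipid-binding protein annexin A1, stood at 190.4, 179 and 165 CPM in controls and 78.1, 48.6 and 53.6 CPM in Grhl2_cKO. It fell to 33.7% of control (log2 fold change -1.57, SE 0.15, with an edgeR adjusted p of 0.00044) with no overlap. Col4a3, a collagen chain gene of the alveolar basement membrane, stood at 58.5, 49.6 and 58.3 CPM in controls and 77.7, 82.9 and 74.5 CPM in Grhl2_cKO. It rose 1.41-fold (log2 fold change 0.50, SE 0.08, with an edgeR adjusted p of 0.00715). Both calls held in each of 16 alternatives.

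Control replicate 1 bore on this list as on the markers. It was the highest control for 22 of the 24 genes, and 15 of them stood at 1.2 times or more the mean of the other controls. Without it 20 of the 24 lay above 0, with a median log2 fold change of 0.19, and 5 were called: Col4a3, Col4a4, Cldn18 and Pmp22 higher, by 0.55, 0.45, 0.38 and 0.72 on the log2 scale (edgeR adjusted p = 0.00595, 0.0108, 0.0495 and 0.00133), and Anxa1 lower. Of the 10 markers 8 then lay above 0, all but Pdpn and Cav2, with a median of 0.14, and Igfbp2 was the 1 call. The share called of all genes was then 3.35%. The median of the markers was -0.071, -0.045 and -0.047 without control replicate 3, control replicate 7 or Grhl2_cKO replicate 1, with 4 of 10 above 0 each time. It was 0.064 and 0.002 without Grhl2_cKO replicates 5 and 10, with 7 and 5 above 0. In these fits the median of the 24 other genes ran from 0.03 to 0.08. Cldn18, a tight junction gene, missed the threshold with all libraries (log2 fold change 0.33 ± 0.08, edgeR adjusted p = 0.0534), and so did Col4a4 (0.0818) and Pmp22 (0.0842). Crip2 also missed it, in the other direction (log2 fold change -0.40 ± 0.10, edgeR adjusted p = 0.0655). With all 6 libraries kept, Cldn18 was called higher in 7 of 10 alternatives (adjusted p 0.000161 to 0.0498). Col4a4 and Pmp22 were called higher, and Crip2 lower, in 1 of 10, DESeq2 (0.0084, 0.00303 and 0.00468). Over all 16 alternatives Cldn18 was called in 8, Col4a4 and Pmp22 in 2 each, and Crip2 in 1. Aqp5, a water channel gene of mature type 1 cells, was low in each library, at 1.52 to 3.96 CPM.

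**Figure D4:**
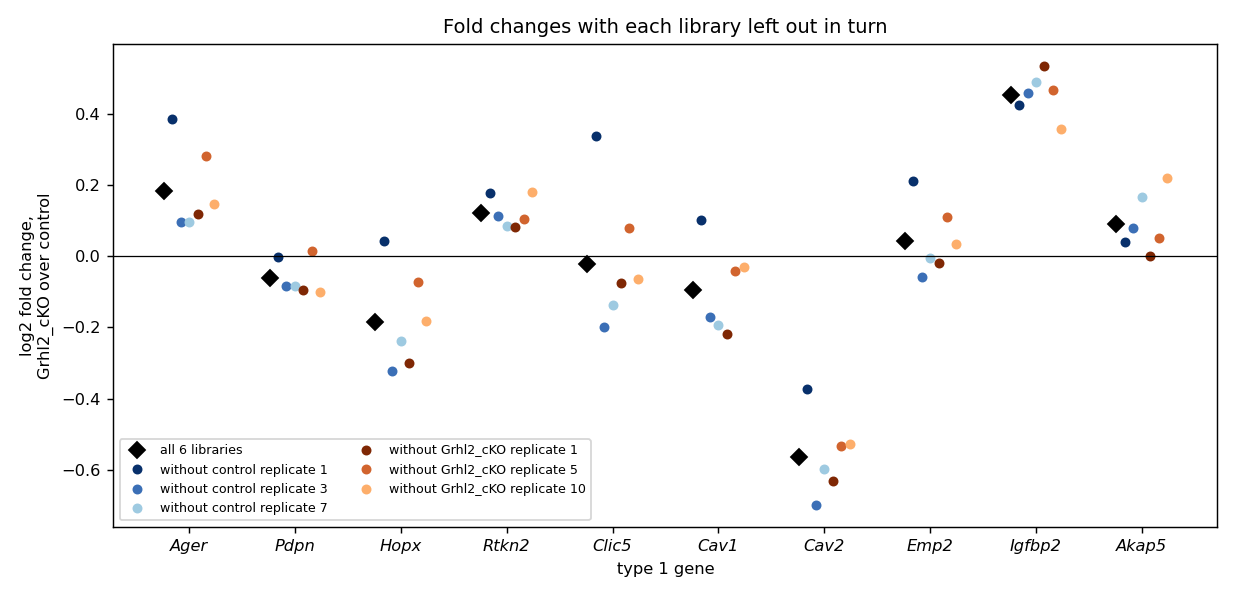
Points give the log2 fold change of each marker with all 6 libraries (black diamond) and with each library left out in turn (circles). Clic5 moves from -0.02 to 0.34, Ager from 0.18 to 0.39 and Hopx from -0.18 to 0.04 without control replicate 1, while Igfbp2 stays between 0.36 and 0.53 and Cav2 between -0.70 and -0.37.

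Genes upstream of the type 1 fate were read next. YAP1 and TAZ, the coactivators of the Hippo pathway, act through TEAD factors and are known to favour type 1 cells. Of 15 Hippo genes 1 fell, Tead3, to 73.4% of control (edgeR adjusted p = 0.0186), and none rose, 6.67% beside 3.62% of all genes. The call of Tead3 was lost without control replicate 7 (edgeR adjusted p = 0.0634) or Grhl2_cKO replicates 5 (0.0765) and 10 (0.0836). Ccn1, a target gene of the pathway, stood at 1048 CPM in control replicate 1 against 543 and 659 CPM in the other controls. Of 12 lung epithelial factor genes 1 fell, Cebpa, to 73.6% of control (edgeR adjusted p = 0.0199; lost without control replicate 7 or Grhl2_cKO replicates 5 or 10, 0.0651, 0.0742 and 0.0863), and Nkx2-1 stood at 598 to 784 CPM in controls and 623 to 806 CPM in Grhl2_cKO (edgeR adjusted p = 0.969).

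Markers of other cells were read in the same fit, in which 3.62% of all genes tested were called. Of 10 type 2 markers 2 fell and none was called higher. Sftpd fell from 7.03 to 3.21 CPM, 45.6% of control, and Lpcat1 to 83.2% (edgeR adjusted p = 0.0365 and 0.0472). The median log2 fold change was -0.25, with 3 above 0 and 7 below 0. The groups did not overlap for 6 of the 10, beside 18.1% of all genes tested. Of these Sftpd, Lpcat1, Sftpa1 and Muc1 lay lower in Grhl2_cKO. Sftpb and Napsa lay higher (log2 fold change 0.27 and 0.45, edgeR adjusted p = 0.178 and 0.0614). Sftpd lost its call in 4 of the 6 fits without 1 library and Lpcat1 in 5 of them. Over all 16 alternatives Sftpd was called in 12 and Lpcat1 in 7 (adjusted p 0.00412 to 0.204 for Lpcat1). Of 6 ciliated markers 4 fell, Foxj1, Dnah5, Rsph1 and Tekt1, to 34.6% to 43.7% of control, and of 5 secretory markers 2 fell, Aldh1a1 to 52.7% and Cbr2 to 33.6% of control (edgeR adjusted p = 0.0291 or less for these 6). Foxj1, Dnah5 and Aldh1a1 were called in each of 16 alternatives, Tekt1 in 13, Rsph1 in 12 and Cbr2 in 14. Tekt1 lost its call without control replicate 3 or Grhl2_cKO replicates 5 or 10 (edgeR adjusted p up to 0.0919), and Rsph1 without these or control replicate 1 (up to 0.0985). Cbr2 lost it with robust quasi-likelihood (edgeR adjusted p = 0.172) and without Grhl2_cKO replicate 10 (0.0715). The 3 lymphatic, 5 mesothelial, 9 mesenchymal, 3 tested immune and 2 tested erythroid markers had no call. Their smallest p-values were those of Prox1, Msln, Dcn, Laptm5 and Hba-a1 (edgeR adjusted p = 0.181, 0.0817, 0.487, 0.688 and 0.953). Msln was called lower without Grhl2_cKO replicate 1 (log2 fold change -2.25, edgeR adjusted p = 0.0113). Of 6 tested heart muscle markers Myh7 rose 1.39-fold (edgeR adjusted p = 0.00122), at 139 to 147 CPM in controls and 192 to 201 CPM in Grhl2_cKO. None of the others was called. No marker in these lists was at 0 in all 6 libraries, and Ptprc, the pan-leukocyte gene, stood between 0.129 and 0.609 CPM.

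**Figure D5:**
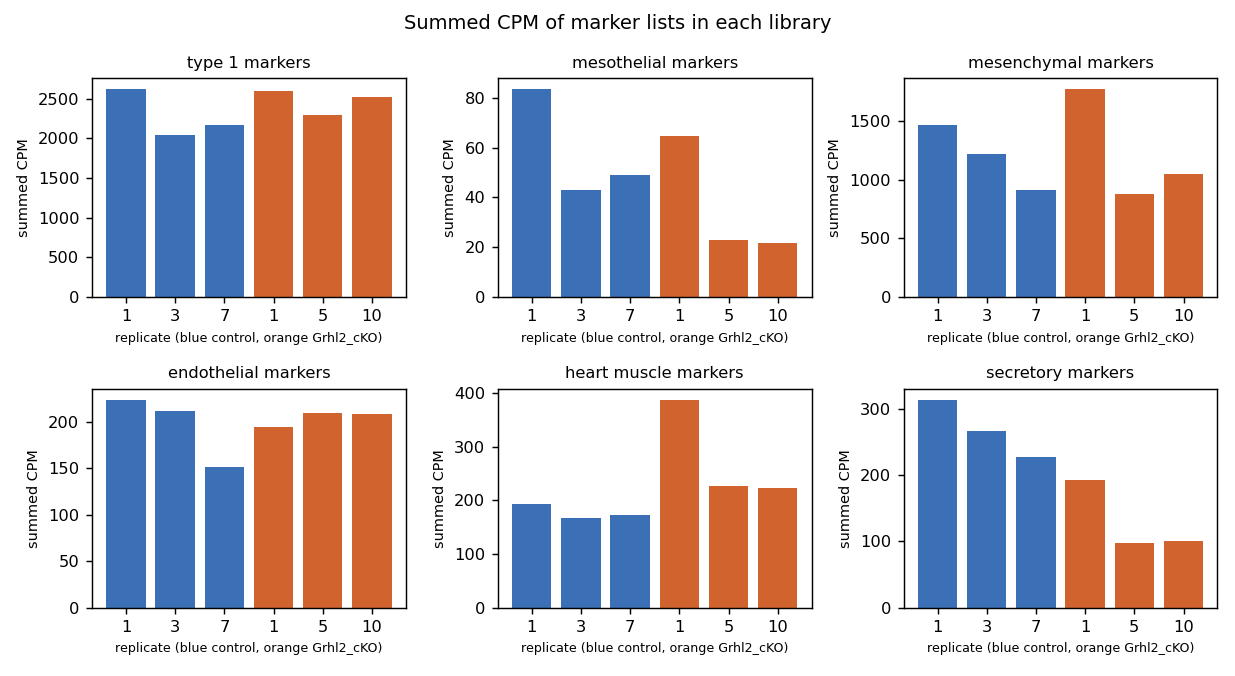
Bars give the summed CPM of 6 marker lists in each library, blue for control and orange for Grhl2_cKO, labelled by replicate number. Mesothelial and mesenchymal sums are highest in control replicate 1 and Grhl2_cKO replicate 1, heart muscle in Grhl2_cKO replicate 1 (388 CPM), and secretory sums are lower in each Grhl2_cKO library than in any control.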

How the data were processed

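Per the labels' protocols, dissociated lungs were sorted for EpCAM, and stranded libraries of polyadenylated RNA were sequenced in 1 lane. The deposited table holds the authors' raw counts by Entrez gene for the 6 samples and a gene length in bases. Per the submitters' processing notes, bcl2fastq 2.17.1.14 and featureCounts were used with the build mm10, and edgeR 3.16.5 and limma 3.30.12 were also used. The sources used here do not give the aligner, the strand setting or the treatment of reads with several positions.

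Symbols and coordinates came from a RefSeq table (GRCm38.p6), which matched 92.99% of identifiers and 99.19% of counts. Of 175 list genes 174 were matched. The test was edgeR 4.0.16 in R 4.3.3 with TMM scaling (factors 0.981 to 1.009), genes kept by filterByExpr (at least 10 counts, 15 in total), estimateDisp and glmQLFit (legacy = FALSE) and no covariate, over all 6 samples, with Benjamini-Hochberg adjustment and a threshold of 0.05. Standard errors were taken from the fold change and its F statistic, and the 95% intervals use its moderated degrees of freedom, unadjusted. Correlations use log2(CPM + 0.5). Replicates differed by more than counting noise (chi-square per degree of freedom 7.72 to 12.9). Count limits cover counting error only.

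The markers and lists were chosen with earlier results of these data known. Named genes are the 10 markers, Grhl2, Epcam, up to 4 called genes of each other list or else its gene with the smallest p, and the 5 genes most like the markers. Others named (Igfbp1, Igfbp5, Emp1, Ccn1, Nkx2-1, Sftpc, Aqp5, Col4a4, Cldn18, Pmp22, Crip2, Ptprc, Col1a1, Col1a2, Col3a1, Pdgfra, Pdgfrb, Tcf21, Acta2, Tagln, Sftpa1, Sftpb, Muc1, Napsa, Actc1, Myh6) were chosen after their values were seen. Other settings tried were scaling by RLE, upper quartile or total counts, no filter (1 count in total), 1 CPM in 3 libraries, DESeq2 1.42.0, limma-voom (limma 3.58.1), robust quasi-likelihood, sex as a covariate, each library left out, and, chosen after seeing the data, legacy quasi-likelihood. On simulated counts for the comparison of Grhl2_cKO with control (14702 genes) the test found 65.6% of 64 genes simulated at 1.5-fold, 88.1% of 67 at 2-fold and 95.2% of 62 at 4-fold. Of its 175 calls 15 were false. The changed genes were picked at random and each gene was simulated independently, with no shift of a library shared between genes as seen in the markers. These rates are therefore not those of the 10 markers.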

Additional observations from a re-analysis of the deposited data

How the results depend on the processing

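Igfbp2 and Cav2 kept their direction in each of 16 alternatives, and Ager, Rtkn2 and Akap5 also, although Akap5 came to 6.55e-05 on the log2 scale at its lowest. Signs turned for the other markers. The log2 fold change of Clic5 was 0.036 with limma-voom. Without 1 library the log2 fold changes ran from -0.20 to 0.34 for Clic5 (0.34 without control replicate 1, 0.078 without Grhl2_cKO replicate 5). They ran from -0.10 to 0.015 for Pdpn (turned without Grhl2_cKO replicate 5). For Hopx they ran from -0.32 to 0.044 and for Cav1 from -0.22 to 0.10 (both turned without control replicate 1). They ran from -0.058 to 0.21 for Emp2 (turned without control replicates 3 and 7 and Grhl2_cKO replicate 1) and -0.79 to 0.18 for the red cell gene Hba-a1 (turned without control replicate 1 or Grhl2_cKO replicate 5). The count of called markers was 1, rose to 2 with no filter on low counts and with DESeq2, Cav2 being added, and was 0 to 1 without 1 library: 0 without Grhl2_cKO replicate 5, and without control replicate 3 the call was Cav2 in place of Igfbp2. The count among the 24 other type 1 genes was 2, 3 with upper-quartile or total-count scaling, no filter, the filter on 1 CPM, limma-voom or robust quasi-likelihood (Cldn18 being added), 6 with DESeq2, and 2 to 5 without 1 library. Calls over the whole table numbered 537, and 249 to 504 without 1 library: 302 and 335 without control replicates 3 and 7, and 257 and 249 without Grhl2_cKO replicates 5 and 10. Of the calls 66.1% were lower, and 56.2% (without control replicate 1) to 74.2% (without control replicate 3) without 1 library. With 3 samples a group the 95% interval of Clic5 spans 0.716 to 1.36 of control, so a change within it is compatible with these values. The interval is not a limit of detection. No paired analysis was made, because no pairing of samples is stated. The groups share only replicate number 1, which is not stated to mark a pair.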
